A study of Mus musculus with 6 samples.

Results

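The common gamma chain receptor subunits are 7 genes, Il2rg, Il2ra, Il2rb, Il4ra, Il9r, Il15ra and Il21r, chosen by name from a count table of 14416 genes. All 7 were in the table and all 7 passed the filter on low counts. Smart-seq2 RNA-seq was run on ILCs (innate lymphoid cells) of mouse lung, sorted as Lin-Thy1.2+ cells, with 3 libraries of wild type (WT) and 3 of an Rbm3 knockout (RBM3KO). ILCs are lymphocytes that lack the rearranged receptors of T and B cells. Mice of both genotypes were of the C57BL/6J strain and all had been challenged with the mould Alternaria alternata, 25 µg given 3 times over 7 days, and unchallenged mice are not analysed here. The sources used here do not give the age of the mice, the design of the Rbm3 allele or whether a library came from 1 animal. The p-values therefore cover the spread between libraries alone, part of which may be technical. The series title frames the study as a test of whether the RNA-binding protein RBM3 restrains ILCs, and the comparison of RBM3KO with WT asks this of receptor transcripts.

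The common gamma chain, encoded by Il2rg, is the shared signalling subunit of the receptors for IL-2, IL-4, IL-7, IL-9, IL-15 and IL-21. Each receptor pairs it with chains of its own: Il2ra and Il2rb for IL-2, Il15ra and Il2rb for IL-15, Il4ra for IL-4, Il9r for IL-9, Il21r for IL-21 and Il7r for IL-7. The gamma chain binds the kinase JAK3, and the signalling partner chains (Il2rb, Il4ra, Il7r, Il9r and Il21r) bind JAK1. The kinases together phosphorylate STAT factors. In lung ILC2s, the ILCs that make IL-5 and IL-13, IL-2, IL-7 and IL-9 are known to support survival and growth.

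In these libraries Il2rg was higher in RBM3KO, and it was the only member of the family to pass the test. Its level rose from 2079 ± 47.6 CPM (SD, n = 3) in WT to 2736 ± 202 CPM (SD, n = 3) in RBM3KO, which is 1.32 times as high. The other 6 members also had estimates above 0, as had 50.9% of all tested genes, and none of them passed. CPM is the count of a gene relative to the total of its library, here scaled by TMM.

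The shallowest library, RBM3KO replicate 3, held 7498247 counts and the deepest, WT replicate 3, held 25068137, and the smallest count of any member was 194 (Il15ra, RBM3KO replicate 3). Rbm3 itself lay between 270 and 314 CPM in WT and between 22.4 and 31.6 CPM in RBM3KO, so each library matched its label. Thy1, the marker of the sort, had 818 to 2245 counts in every library. The 12 markers of ILCs, Il7r and Il13 among them, had a summed level of 5755 to 6995 CPM of the total count in WT and of 7710 to 8250 in RBM3KO. Of these 12 markers, 11 had estimates above 0, as had 50.9% of all tested genes. Their median log2 fold change was 0.52, beside 0.40 for Il2rg and 0.01 over all tested genes. In every RBM3KO library 9 of them lay above WT, as did 8.43% of all tested genes. With edgeR 0 passed, with DESeq2 4 (Icos, Il1rl1, Il5 and Il7r) and with limma-voom 1 (Il5). At an unadjusted p under 0.05, 8 were higher, as were 5.46% of all tested genes. The 6 B cell markers analysed summed to 58.8 to 79.7 CPM in WT and 35.1 to 42.6 in RBM3KO, with Igj at 0 in each RBM3KO library. Of these 6, 0 had estimates above 0, with a median log2 fold change of -2.22. In every RBM3KO library 4 of them lay below WT, as did 10.5% of all tested genes. With edgeR or limma-voom 0 passed and with DESeq2 2 (Cd79a and Igj, lower). At an unadjusted p under 0.05, 2 were lower, as were 6.86% of all tested genes. Sums of T cell markers (490 to 623 CPM in WT, 556 to 732 in RBM3KO), NK cell markers (124 to 370 and 119 to 174) and myeloid markers (114 to 266 and 95.6 to 185) overlapped between the genotypes. Of the 5 NK cell markers 1 had an estimate above 0, with a median log2 fold change of -0.68, and 2 (Prf1 and Klrb1c) were lower at an unadjusted p under 0.05. Of the 7 T cell markers tested 3 had estimates above 0, with a median of -0.02, and at an unadjusted p under 0.05, 1 (Lat) was higher, without overlap. Lat (260 to 346 CPM) and Cd3g (145 to 313 CPM) had the highest levels of this list, while Cd3e lay between 15.7 and 32.8 CPM. The T cell sum therefore follows mainly Lat and Cd3g. Of the 9 myeloid markers tested 2 had estimates above 0, with a median of -0.93, and 0 were past an unadjusted p of 0.05. In these 3 lists 0 passed with edgeR, DESeq2 or limma-voom. The nuclear RNA Malat1 had 206 to 302 CPM in WT and 327 to 731 in RBM3KO, without overlap (log2 fold change 0.96, edgeR adjusted p = 0.109). The receptor chains are made by several of these cell types, and the part of these markers and of Malat1 in the results below was not tested. In sorted bulk RNA, more cells of a type and more RNA per cell cannot be told apart.

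The members lie at 5 places in the genome (GRCm38, which is mm10; GENCODE M21). Il2rg is on chromosome X from 101264378 to 101268255, Il2rb on chromosome 15 from 78479256 to 78495271, and Il9r on chromosome 11 from 32187541 to 32200279. The other members form neighbouring pairs on the same strand. Il2ra (chromosome 2, 11642807 to 11693193) is followed by Il15ra (11705290 to 11734317) after 12096 bases, and Il4ra (chromosome 7, 125552120 to 125579474) by Il21r (125603429 to 125633570) after 23954 bases, with 0 protein-coding genes between either pair. The annotation overlaps Il2rg with the same-strand gene Gm20489, Il2ra with Gm37881 and Il4ra with the antisense gene Gm44876. The strand setting of the counting is not known, so reads of Il4ra and Gm44876 cannot be told apart. For Il2rg and Il2ra the overlap is on the same strand, so no strand setting would tell shared reads apart. Gm20489 is annotated as protein-coding, and none of these overlapping genes is in the count table. The part of the overlaps in the counts was not tested.

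RefSeq promoter windows (GRCm38.p6) were matched by symbol for 6 of the 7 members. The 250 bases before the start are shown for the 4 members whose window also lies outside the GENCODE gene. They place the upstream sequence of Il2rg beside those of 3 members that did not pass, which need not be unchanged. A link of these sequences to the genotype difference was not tested. Each is written 5′ to 3′ on the gene's strand, and capitals mark matches, on either strand, to 4 motifs that were picked after these sequences had been seen. The letters TTCNNNGAA are a site of STAT factors, which the receptors activate. Factors of the ETS family, many of them active in lymphocytes, bind around CCGGAA in DNA. For GATA factors, among them the ILC2 regulator GATA3, the letters searched were AGATAA on either strand. For RUNX factors, which also act in lymphocytes, they were TGTGGT on either strand.
Il2rg: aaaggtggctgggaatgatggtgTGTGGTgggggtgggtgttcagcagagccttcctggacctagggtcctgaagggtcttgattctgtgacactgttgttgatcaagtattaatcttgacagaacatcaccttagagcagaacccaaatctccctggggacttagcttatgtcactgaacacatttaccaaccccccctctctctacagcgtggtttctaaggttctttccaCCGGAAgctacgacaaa
Il2ra: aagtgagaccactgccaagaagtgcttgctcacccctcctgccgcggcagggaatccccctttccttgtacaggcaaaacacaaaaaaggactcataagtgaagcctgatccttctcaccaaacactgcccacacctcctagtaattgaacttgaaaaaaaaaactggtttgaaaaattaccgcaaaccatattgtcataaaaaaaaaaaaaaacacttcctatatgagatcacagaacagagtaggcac
Il9r: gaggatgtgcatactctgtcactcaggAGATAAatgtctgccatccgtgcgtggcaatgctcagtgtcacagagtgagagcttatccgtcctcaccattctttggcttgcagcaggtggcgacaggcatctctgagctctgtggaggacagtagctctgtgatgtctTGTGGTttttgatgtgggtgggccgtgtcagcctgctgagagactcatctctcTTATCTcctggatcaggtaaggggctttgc
Il21r: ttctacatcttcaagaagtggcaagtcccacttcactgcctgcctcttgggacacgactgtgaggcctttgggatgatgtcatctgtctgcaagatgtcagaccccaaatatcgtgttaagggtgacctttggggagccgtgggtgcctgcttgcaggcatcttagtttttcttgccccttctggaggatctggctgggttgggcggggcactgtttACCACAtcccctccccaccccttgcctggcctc
These windows are chrX:101268256-101268505 on the minus strand, chr2:11642542-11642791 on the plus strand, chr11:32200280-32200529 on the minus strand and chr7:125603179-125603428 on the plus strand, in the order printed. The Il2rg window held an ETS match from 17 to 12 bases before the start and a RUNX match from 227 to 222 bases before it. The Il9r window held GATA matches from 223 to 218 and from 30 to 25 bases before the start and a RUNX match from 83 to 78, and the Il21r window held 1 RUNX match. No capitals stand in the Il2ra window, which says only that these letters are not in it. No match overlapped another. Over the 6 members with a window, ETS letters were found for 2 (Il2rg and Il15ra), RUNX letters for 3, GATA letters for 1 and STAT letters for 0. Among all 32851 windows of this length in the table, 12% held the ETS letters, 14% the RUNX letters, 9.99% the GATA letters and 7.02% the STAT letters. A match is a run of letters and was not tested as a binding site.

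Levels of different chains were compared per length, as CPM per kilobase of transcript. The 6 libraries gave Il2rg a median of 1408 CPM per kilobase, from 1212 to 1777, and its mean ranked 48 among the 10331 tested genes with a length. Il2rb, the chain that IL-2 and IL-15 share, was next with a median of 275 (237 to 324). Il2rg lay above Il2rb, and Il2rb above every other chain, in all libraries. Il9r (median 75.5, from 64.3 to 83.0), Il2ra (63.1, from 53.8 to 71.7), Il4ra (53.7, from 43.4 to 90.2) and Il21r (45.2, from 32.9 to 61.7) followed, and each range overlapped the next. Il15ra was lowest, with a median of 16.0 (5.70 to 19.4) and no overlap with Il21r.

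**Figure D1:**
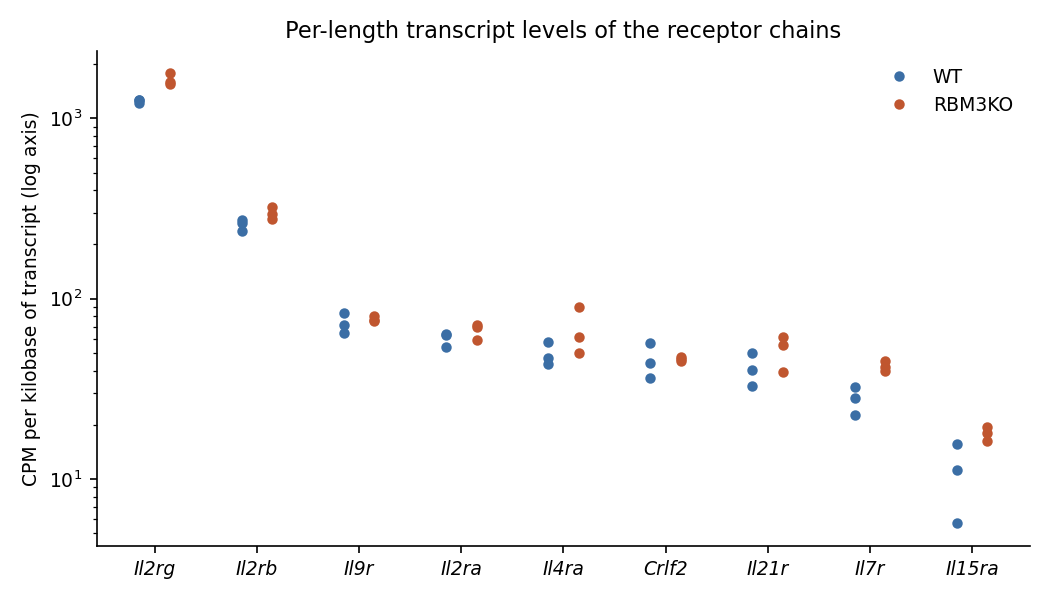
Each point is the level of a receptor chain in 1 library, in CPM per kilobase of transcript on a log axis, for WT (blue) and RBM3KO (orange). Il2rg lies between 1212 and 1777, above Il2rb (237 to 324), and Il15ra is lowest (5.70 to 19.4).

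The gamma chain transcript exceeded its partners together. Per kilobase, Il2rg stood at 2.23 to 2.71 times the sum of 7 partner chains (the other members and Il7r) in WT and at 2.32 to 3.02 times in RBM3KO, with overlap between the genotypes. The level of Il2ra per kilobase was 0.227 to 0.243 times that of Il2rb in WT and 0.198 to 0.253 times in RBM3KO. These ratios describe transcripts of the bulk sample and say nothing of the chains on 1 cell.

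The shared chain Il2rg had 2105, 2108 and 2024 CPM in WT replicates 1, 2 and 3 and 2646, 2968 and 2594 CPM in RBM3KO replicates 1, 2 and 3. The WT libraries lay close together, every RBM3KO library lay above them, and RBM3KO replicate 2 was highest. The log2 fold change, RBM3KO minus WT, was 0.40 (SE 0.078, 95% interval 0.22 to 0.57, edgeR adjusted p = 0.0393). Among all tested genes other than Rbm3, 28 were called higher, which is 0.246% of 11381, and 113 lower, which is 0.993%, or 1.24% in either direction. The direction of Il2rg held in all 15 alternative settings, with values between 0.34 and 0.43, and its call held in 8 of them. Leaving out any 1 of the 6 libraries ended the call, with adjusted p from 0.0506 without RBM3KO replicate 3 to 0.194 without WT replicate 1, while the unadjusted p was at most 0.00234 under any setting.

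**Figure D2:**
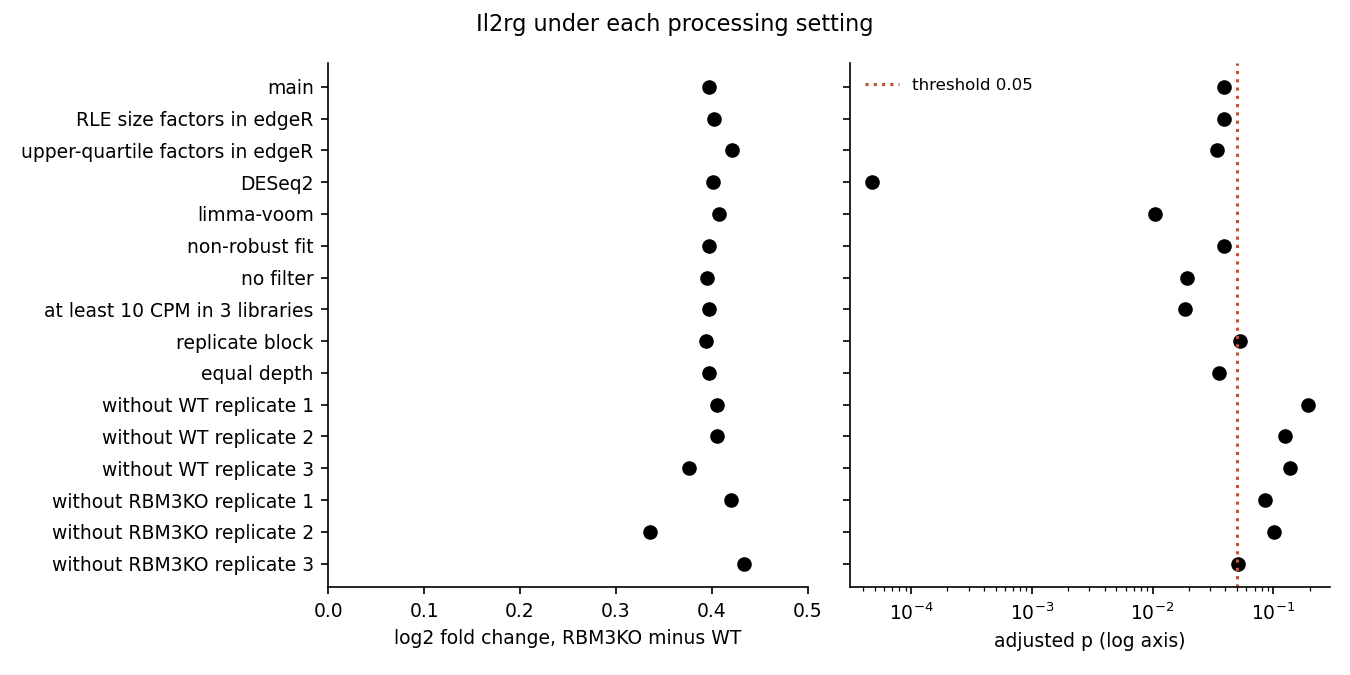
The log2 fold change of Il2rg, RBM3KO minus WT (left), and its adjusted p on a log axis (right) under each processing setting, with the threshold of 0.05 dotted. The fold change stays between 0.34 and 0.43, while the adjusted p passes to the right of the threshold when any 1 library is left out and with the replicate block.

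Il2rg and Rbm3 both lie on chromosome X, Rbm3 from 8138975 to 8145880. Of 329 tested genes of this chromosome other than Rbm3, 2 were called higher, Il2rg among them, and 1 lower. Over all tested genes other than Rbm3 the shares were 0.246% and 0.993%. The median log2 fold change of the 329 was 0.07, beside 0.01 over all tested genes. Xist, the RNA of the inactive X, had 27.4 to 47.1 CPM in WT libraries and 40.3 to 69.3 CPM in RBM3KO libraries. It was read in every library, and the genotypes overlapped (log2 fold change 0.67, SE 0.27, edgeR adjusted p = 0.329).

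Il2rb, the signalling chain that pairs with the gamma chain for IL-2 and IL-15, had 996, 1144 and 1101 CPM in WT and 1360, 1244 and 1163 CPM in RBM3KO. The genotypes did not overlap, although RBM3KO replicate 3 was close to the highest WT library. Its log2 fold change was 0.22 (SE 0.090, 95% interval 0.02 to 0.42) and did not pass the test over all genes (edgeR adjusted p = 0.358).

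The alpha chains of IL-2 and IL-15 raise the affinity for their cytokine and carry little signal themselves. Il2ra, or CD25, had 238, 276 and 281 CPM in WT and 316, 260 and 309 CPM in RBM3KO. RBM3KO replicate 2 fell within the WT range, and the log2 fold change of 0.15 (SE 0.11, 95% interval -0.10 to 0.41) did not pass (edgeR adjusted p = 0.675). Leaving out RBM3KO replicate 2 gave 0.24, RBM3KO replicate 1 gave 0.10 and WT replicate 1 gave 0.08. Il15ra, its neighbour on chromosome 2, had 17.9, 25.2 and 9.12 CPM in WT and 31.0, 28.7 and 26.1 CPM in RBM3KO. All RBM3KO libraries were above all WT libraries, but WT replicate 3 stood far below the rest. Its log2 fold change of 0.72 had the widest interval of the members (SE 0.35, 95% interval -0.06 to 1.5, edgeR adjusted p = 0.449) and was 0.41 without WT replicate 3 and 1.09 without WT replicate 2. Of the members, 3 (Il2rg, Il2rb and Il15ra) had no overlap with RBM3KO above, as had 8.43% of all tested genes.

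**Figure D3:**
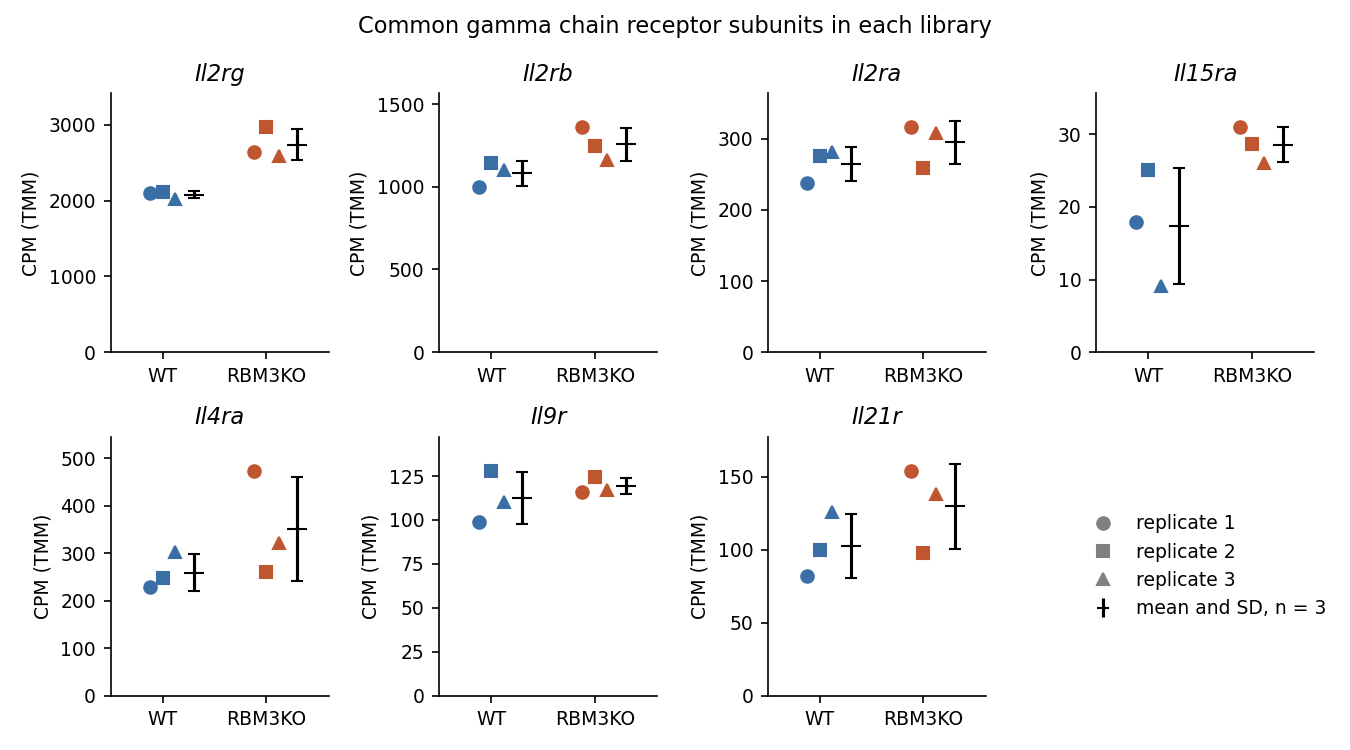
CPM (TMM-scaled, axis from 0) of the 7 members in each library, with a symbol for each replicate and the mean and SD of 3 libraries beside them. The RBM3KO libraries lie above the WT libraries for Il2rg, Il2rb and Il15ra and overlap them for the other 4.

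Il4ra encodes the chain that binds IL-4 and, with Il13ra1, IL-13. It had 228, 247 and 303 CPM in WT and 474, 262 and 321 CPM in RBM3KO. RBM3KO replicate 1 stood above every other library, and RBM3KO replicate 2 lay within the WT range. The log2 fold change was 0.44 (SE 0.19, 95% interval 0.01 to 0.87, edgeR adjusted p = 0.389), and it was 0.16 without RBM3KO replicate 1. Il21r, the receptor chain for IL-21 and the next gene along chromosome 7, had 82.1, 100.2 and 126 CPM in WT and 154, 97.6 and 138 CPM in RBM3KO. WT replicate 1 was lowest and RBM3KO replicate 1 highest for both neighbours, but also for Il2ra and Il2rb, which lie on different chromosomes. The ratio of Il21r to Il4ra in CPM stayed between 0.326 and 0.431 over the 6 libraries. That of Il2ra to Il2rb per kilobase stayed between 0.198 and 0.253, so such ratios are not particular to neighbours. Il21r had a log2 fold change of 0.34 (SE 0.20, 95% interval -0.10 to 0.77, edgeR adjusted p = 0.552). It was 0.19 without RBM3KO replicate 1, 0.20 without WT replicate 1, and 0.51 without either WT replicate 3 or RBM3KO replicate 2.

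Il9r binds IL-9, a growth factor that ILC2s make and answer to. It had 99.1, 128 and 110 CPM in WT and 116, 124 and 117 CPM in RBM3KO, so that all RBM3KO libraries lay inside the WT range. The log2 fold change was 0.08 (SE 0.13, 95% interval -0.21 to 0.37, edgeR adjusted p = 0.896), so changes within that interval are not excluded. It was -0.0020 without WT replicate 1, 0.18 without WT replicate 2 and 0.05 without RBM3KO replicate 2.

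**Figure D4:**
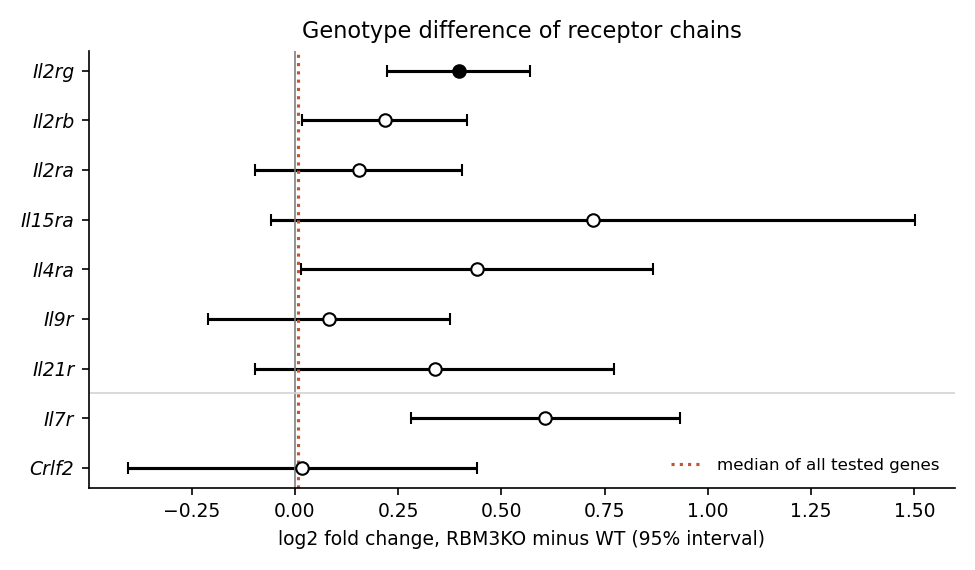
Log2 fold change, RBM3KO minus WT, with its 95% interval for the 7 members and, below the line, for Il7r and Crlf2. The point of Il2rg (0.40) is filled because it passed the test, and the dotted line marks the median of all tested genes (0.01).

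Over the family, 1 of 7 members rose and 6 did not pass, with a median log2 fold change of 0.34 beside 0.01 over all tested genes. At an unadjusted p under 0.05, 3 members were higher (Il2rg, Il2rb and Il4ra), as were 5.46% of all tested genes. The members shared their libraries and a scaling, and so are not independent of each other.

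The root-mean-square difference between centred log2 CPM profiles over the 6 libraries measured how alike genes were. Among the 21 pairs of members it ran from 0.11 (Il2ra with Il2rb) to 0.65 (Il15ra with Il21r). For neighbouring genes it was 0.14 (Il4ra with Il21r) and 0.58 (Il2ra with Il15ra). Genes on different chromosomes were as close as the former, such as Il2rg with Il2rb (0.14) and Il2rb with Il9r (0.11). Of 7175 genes at a mean of 10 CPM or more, the closest to Il2rg were Pkp3 (0.043), which encodes a plakophilin, Polr3a (0.044), the large subunit of RNA polymerase III, Tle3 (0.052), a transcriptional corepressor, and the tetraspanin gene Cd82 (0.054). Genes picked for a profile like that of Il2rg share its genotype difference by that choice. Of them Cd82 passed, with 2657 CPM in WT and 3631 CPM in RBM3KO (edgeR adjusted p = 0.0175), and the other 3 did not pass. The closest to Il2ra were Dhrs1 (0.025), Arl4a (0.036), Rab18 (0.041) and the galectin-3 gene Lgals3 (0.045), none of which passed with edgeR. These names only describe the pattern over 6 libraries.

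Il7r, the IL-7 receptor chain that marks ILCs, is the gamma chain partner outside the 7 members. It had 80.3, 99.6 and 115 CPM in WT and 148, 161 and 141 CPM in RBM3KO. The genotypes did not overlap, and the log2 fold change of 0.61 (SE 0.15, 95% interval 0.28 to 0.93) did not pass with edgeR (adjusted p = 0.0922), while it passed with DESeq2 (adjusted p = 0.0140) and at 10 CPM or more in 3 libraries (adjusted p = 0.0423). Crlf2, which joins Il7r in the receptor for TSLP, was level, with means of 60.6 ± 13.6 (WT) and 61.3 ± 1.47 CPM (RBM3KO; log2 fold change 0.02, 95% interval -0.40 to 0.44). Its sign was negative without WT replicate 1 and without WT replicate 3. Il13ra1 and Tslp were not analysed here.

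Of the ligands, 7 were tested, and 0 passed with edgeR, 1 with DESeq2 (Il4) and 0 with limma-voom. The list includes Il13 as a ligand of Il4ra with Il13ra1, although IL-13 is not among the gamma chain cytokines named above. At an unadjusted p under 0.05, 3 were higher (Il4, Il9 and Il13), as were 5.46% of all tested genes. Their median log2 fold change was 1.04, beside 0.01 over all tested genes. That median includes low genes with wide errors: Il2 (0.15, SE 0.50), Il7 (2.21, SE 2.06), Il9 (2.39, SE 0.98), Il15 (1.71, SE 0.89) and Il21 (0.34, SE 0.44). Il13, the ILC2 cytokine that signals through Il4ra, had 212, 262 and 263 CPM in the WT libraries and 311, 479.5 and 285 in those of RBM3KO (log2 fold change 0.55, edgeR adjusted p = 0.217, or 0.28 on the log2 scale without RBM3KO replicate 2). Il4 had 14.6, 24.3 and 15.9 CPM in the WT libraries and 37.3, 39.9 and 35.5 in those of RBM3KO (1.04, edgeR adjusted p = 0.106). Neither gene overlapped between the genotypes. The other 5 tested ligands, Il2, Il7, Il9, Il15 and Il21, were at 0.00 to 13.1 CPM in every library.

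Of the 13 kinases and adaptors 0 passed with edgeR, DESeq2 or limma-voom, with a median log2 fold change of 0.14. At an unadjusted p under 0.05, 1 was higher (Tyk2) and 1 lower (Grb2), as were 5.46% and 6.86% of all tested genes. Jak3, the kinase that the gamma chain carries, averaged 488 ± 77.2 CPM (WT) and 537 ± 71.5 CPM (RBM3KO), with overlap (log2 fold change 0.14, 95% interval -0.15 to 0.43). With 1 library left out its value ran from 0.03 without RBM3KO replicate 1 to 0.27 without WT replicate 3. Jak1, its partner kinase, had 357 ± 49.7 and 424 ± 38.3 CPM (0.25, 95% interval -0.02 to 0.51, or 0.13 without WT replicate 1). Of the 5 STAT factors 0 passed with any of the 3 tools, with a median of 0.12. At an unadjusted p under 0.05, 1 (Stat3) was higher, as were 5.46% of all tested genes. Stat3, which IL-21 activates, had 321 ± 19.8 and 407 ± 45.7 CPM (0.34, edgeR adjusted p = 0.189). Stat6, which relays IL-4, had 303 ± 16.7 and 300.3 ± 57.4 CPM, and the sign of its difference turned with the scaling.

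Of 15 targets and feedback genes 0 passed with edgeR or limma-voom and 1 with DESeq2 (Cish), with a median of 0.20. At an unadjusted p under 0.05, 2 were higher (Cish and Myc) and 1 lower (Mcl1), as were 5.46% and 6.86% of all tested genes. Cish, the STAT5-induced inhibitor of cytokine signalling, had 1226, 1081 and 1016 CPM in the WT libraries and 1332, 1362 and 1393 in those of RBM3KO, without overlap (log2 fold change 0.30, edgeR adjusted p = 0.168). Ccnd3, encoding cyclin D3, stood at 618 ± 34.5 and 619.9 ± 72.9 CPM, with no settled sign over the alternatives. Mcl1, a survival factor of lymphocytes, was lower in each RBM3KO library (104 ± 3.79 and 74.9 ± 12.9 CPM, -0.47, edgeR adjusted p = 0.211).

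**Figure D5:**
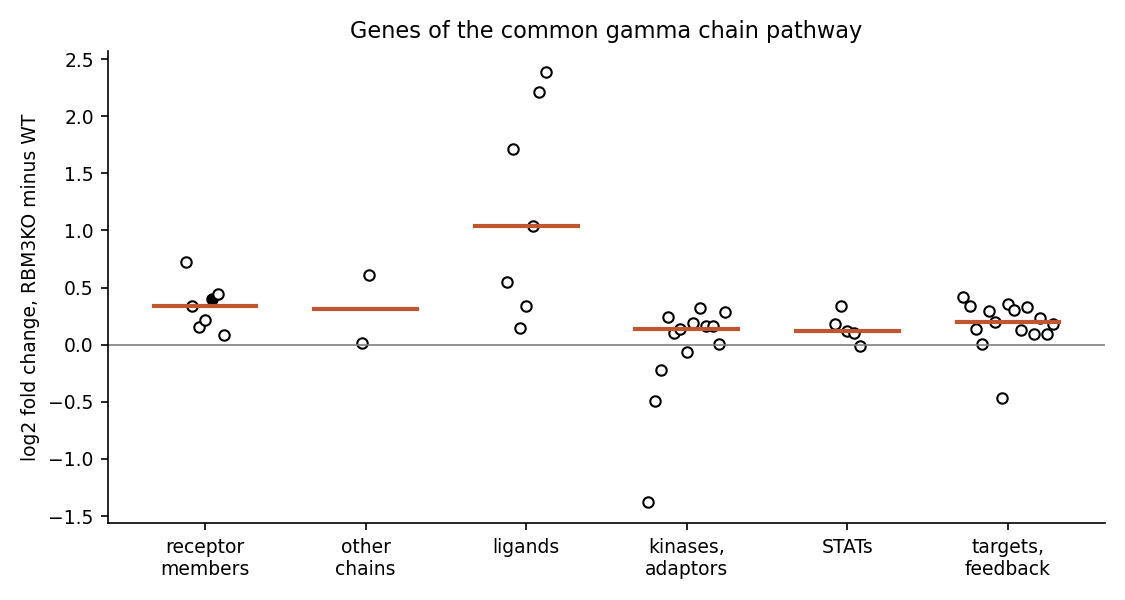
Log2 fold changes, RBM3KO minus WT, of the tested genes of the members and of each pathway list, 1 point a gene, filled where the gene passed the test, with the list median as a line. Il2rg is the single filled point, and the medians of these lists run from 0.12 for the STAT factors to 1.04 for the ligands. The ligand median includes genes at low counts with wide errors.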

How the data were processed

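The deposited table holds the authors' raw counts for each gene and library. According to the submitters' processing notes, featureCounts 1.6.5, STAR 2.6.1c and Bowtie 1.0.0 were used with mm10. The sources used here do not give the annotation, the strand setting or any read filter. Standard Smart-seq2 has no molecular identifiers, so PCR copies are counted, and reads shared by overlapping genes can be lost or misassigned. Counts were filtered with filterByExpr (11382 genes left), scaled by TMM and tested with edgeR 4.0.16 (R 4.3.3, quasi-likelihood, robust, two-sided, no covariate), with Benjamini-Hochberg adjustment over all tested genes and a threshold of 0.05. The SE is the log2 fold change divided by the square root of F, and intervals use the fit's degrees of freedom. The procedure was tested on simulated data. Levels summed over a list were not scaled by TMM. Alternatives used DESeq2 1.42.0 (on all 14416 genes, with its own independent filtering in place of filterByExpr), limma 3.58.1, other scalings and filters, thinning to equal depth, a replicate block and leaving out each library. Any 2 libraries differed by a chi-square of at least 21.5 per degree of freedom, so all 6 were kept. An exact permutation test of 3 against 3 cannot go below p = 0.1 and was not used. Transcript lengths came from the longest coding transcript in GENCODE M21, and 13038 of 14416 symbols matched. All members were named, with Il7r, Crlf2 and, of each pathway list, the genes past the threshold and the 2 with the highest mean. Tyk2, Grb2, Myc, Mcl1, the 5 low ligands, and the genes named among the cell type markers and other cytokine receptors were named after their values were seen. One listed B cell marker is not reported here. Members and lists were chosen with earlier results of these data known.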

Additional observations from a re-analysis of the deposited data

How the results depend on the processing

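Thinning to equal depth changed no member's call. Of the 7 members, 6 did not pass in any of the 15 alternatives, and 6 kept a positive estimate in all of them. Il9r, at 0.08, turned to -0.0020 without WT replicate 1. The Il2rg call was lost in 7 alternatives, so that 0 members changed there: on leaving out any library (log2 fold change 0.34 to 0.43, and 0 members throughout) and with the replicate block (0.39, adjusted p = 0.0535). Deviations of equal replicate numbers correlated at 0.056, 0.057 and 0.005, and those of unequal numbers at -0.069 to 0.021. Such small values cannot decide whether equal numbers pair the samples. Over all genes, 141 were called and 11 to 98 when a library was left out. Pathway genes outside the members went from 0 to 1 at 10 CPM or more in 3 libraries. DESeq2 called 433 genes (158 higher) and 3 pathway genes, but it was given 14415 genes against 11381, so tool and filter changed together; edgeR without a filter called 48 higher and 141 lower, and 0 pathway genes. Signs turned for 4 genes with estimates near 0. Stat6 went from -0.014 to 0.0083 with upper-quartile factors and 0.0040 with limma-voom, and lay between -0.16 and 0.11 as libraries were left out. Ccnd3 went from 0.0038 to -0.0017 with the replicate block, and from -0.086 to 0.084 over the left-out libraries. Crlf2 lay between -0.12 and 0.20 over them, and Il9r between -0.0020 and 0.18. The cause of these changes was not tested. Leaving out a library makes its group smaller and removes its values together.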

Other observations

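Cytokine receptors outside the family were read from a list of 41 genes written after the members' values were seen, of which 25 were tested. With edgeR 0 passed, DESeq2 called 4 higher (Il1r2, Il1rap, Il1rl1 and Il27ra) and limma-voom 1 (Il1r2). Il1rl1 is also counted among the ILC markers. At an unadjusted p under 0.05 there were 5 higher and 0 lower, beside 5.46% and 6.86% of all tested genes. The median log2 fold change was 0.22, beside 0.01 over all tested genes. Estimates were above 0 for 18 genes, as for 50.9% of all tested genes. Il1r2, the decoy receptor for IL-1, had 738, 987 and 895 CPM in the WT libraries and 1134, 1627 and 1251 in those of RBM3KO, without overlap (log2 fold change 0.61, edgeR adjusted p = 0.0741). Il1rl1, the IL-33 receptor chain, had 283, 324 and 483 CPM in the WT libraries and 546, 535 and 579 in those of RBM3KO (0.61, edgeR adjusted p = 0.138). Il1rap, the chain that IL-1 and IL-33 receptors share, had 5.03, 2.70 and 2.00 CPM in the WT libraries and 18.7, 11.9 and 8.48 in those of RBM3KO (2.02, SE 0.53, edgeR adjusted p = 0.123). Il27ra, the IL-27 receptor chain, had 454, 434 and 385 CPM in the WT libraries and 536, 617 and 518 in those of RBM3KO (0.39, edgeR adjusted p = 0.121). The interferon receptor genes Ifnar1 (0.23), Ifngr1 (0.16), Ifngr2 (0.10) and Ifnar2 (-0.01) overlapped between the genotypes and did not pass.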
